A study of Mus musculus with 8 samples.

Results

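Zinc finger genes with symbols from Zfp900 to Zfp999 were examined in 8 mouse embryos collected whole on embryonic day 8.5 (E8.5). The members are all non-control array probes whose RefSeq accession, without its version, belongs to a gene with a symbol of this form, and the rule leaves out Zfp933. They came to 75 probes of 42 genes, out of 55681 distinct probes on the array and 20660 genes that an accession could name. The rule itself reads gene names and no measured value. The 42 genes lie on 11 chromosomes, with 11 genes on chromosome 17, 8 on chromosome 7, 6 on chromosome 4 and 4 each on chromosomes 2 and 8.

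Every embryo carried 1 copy of Eedl7Rn5-1989SB, a hypomorphic allele of Eed, on a mixed C57bl6/129 background, and every mother was wild type. EED is a core subunit of Polycomb repressive complex 2 (PRC2), which methylates histone H3 at lysine 27. The father was homozygous for the allele in 4 embryos (HOM1 to HOM4) and heterozygous in the other 4 (HET1 to HET4), so the design varied the father's genotype and kept that of the embryo constant. HOM1, HOM2, HET1 and HET3 were female, and HOM3, HOM4, HET2 and HET4 were male. The study had fewer fathers of each genotype than embryos measured here, so some embryos share a father, and p-values measure the spread between embryos.

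Many genes of this kind encode Krüppel-associated box (KRAB) zinc finger proteins. In such a protein the array of zinc fingers reads a DNA sequence, often inside a retrotransposon, and the KRAB domain recruits the corepressor TRIM28 (KAP1). TRIM28 brings in SETDB1, which methylates histone H3 at lysine 9, and HP1 proteins bind that mark, so that the element is silenced, which matters in the early embryo while DNA methylation is being re-established. The genes stand in tandem clusters that grew by duplication, and neighbours can be very similar in sequence. The function of most members listed here is not established. Zfp932 on chromosome 5 is an exception, as its protein is known to repress endogenous retroviruses of the ERVK class. Probe sequences were not among the sources used here, so whether a probe also binds transcripts of a neighbouring copy was not tested.

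Each embryo was measured on 1 single-colour Agilent SurePrint G3 Mouse GE 8x60K array. Values below are log2 processed signals minus the 75th percentile of the same array, so that 0 is the 75th percentile, and levels are compared between embryos for 1 probe and not between probes. Between 54.4% and 60.8% of spots cleared the background on the HOM father arrays and between 51.9% and 58.5% on the HET father arrays, and no spot was saturated. Each father group had a slide of its own, and a slide difference cannot be told apart from a father difference in any value below. The Eed probe, common to all embryos by genotype, had a signal of 4.72 ± 0.06 with HOM fathers and 4.71 ± 0.05 with HET fathers (mean ± SD, n = 4). Both Xist probes were higher in every embryo labelled female than in every embryo labelled male, and all 4 Y-linked probes tested were lower, in accordance with the labels. The labelled tissue was checked with 13 genes of the E8.5 embryo, among them T, Otx2 and Nkx2-5, and all 13 were well above background on all 8 arrays. All 5 markers of visceral yolk sac endoderm were as well, as were 4 of 5 of trophoblast (not Tpbpa), 1 of 2 of decidua (Prl8a2, not Prl3c1) and 2 of 5 of maternal blood (Hba-a1 and Hbb-b2). The leukocyte markers Ptprc and Lyz2 were well above background on no array, and S100a8 was so on 4 HOM father and 2 HET father arrays.

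Transcripts of the family were widely detected. A signal well above background on all 8 arrays was found at 70 of the 75 probes, and 73 (97.3%) passed the expression filter, which asked on at least 4 arrays for a signal that clears the background and is not below the 20th percentile. For comparison 53.4% of all probes passed, and 391 of the 433 probes of other genes named Zfp and a number did. All 42 genes had a tested probe, and no tested probe had passed through the detection of 1 father group alone. Mean signals of the tested probes ranged from -5.04 to 4.56. The 2 probes that did not pass belong to Zfp936 and Zfp951, and each gene has another probe that did. The dim Zfp936 probe (A_55_P1996052) was well above background in 2 embryos of HOM fathers and in no embryo of a HET father, with signals of -5.29, -4.93, -6.00 and -1.82 in HOM1 to HOM4. Mean signals were -4.51 with HOM fathers, raised by HOM4, and -6.43 with HET fathers. No fold is given, because this probe was not well above background in most embryos. The dim Zfp951 probe (A_66_P137410) was well above background in HET2 alone, at -2.77, and no fold is given for it.

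To determine whether the father's Eed genotype was associated with expression of these genes, the 4 embryos of HOM fathers were compared with the 4 of HET fathers. Of the 73 tested probes 15, from 13 genes, were higher with HOM fathers (20.5%, limma adjusted p below 0.05), where 12.3% of all tested probes were. Only 2 probes were lower (2.74%), where 8.69% of all tested probes were. The higher probes differed by 1.15-fold to 1.74-fold, and none passed the study's limits of a 2-fold change at an adjusted p below 0.01, which 1.24% of all probes passed upwards and 0.0269% downwards. The median difference was 0.09 on the log2 scale for the members and -0.02 for all tested probes. Among 391 tested probes of other genes named Zfp and a number, 30 were higher (7.67%) and 43 lower (11.0%), with a median of -0.03. The split depended on the scaling of the arrays. When each array was scaled to its median, which moved all differences down so that the median of all probes was -0.22, 5 members were higher and 13 lower. The shares of all tested probes called under this scaling were not counted, so these 2 counts cannot be set against them.

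**Figure D1:**
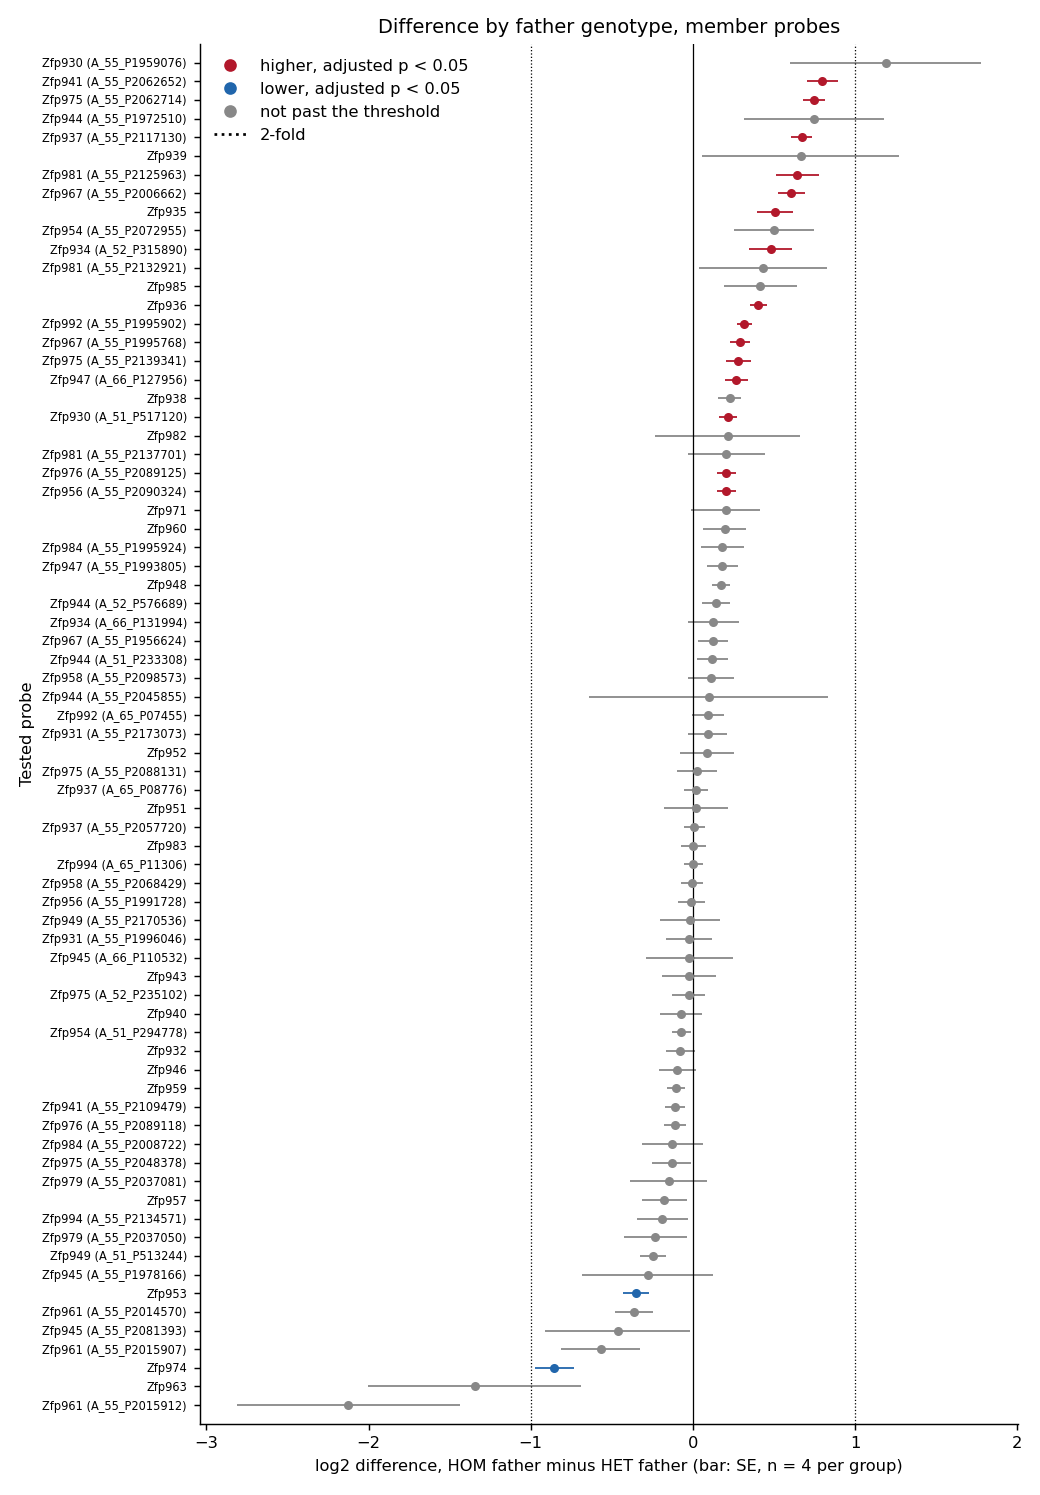
Difference by father genotype for the 73 tested probes, as the log2 signal in embryos of HOM fathers minus HET fathers on the horizontal axis. Points are limma estimates with their standard error (n = 4 embryos per group), red for the 15 higher and blue for the 2 lower probes. Dotted lines mark 2-fold, and the 3 probes beyond them are grey with wide bars.

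The clearest difference was at Zfp975, in the chromosome 7 group. Its probe A_55_P2062714 read 1.32, 1.18, 1.16 and 1.08 in HOM1 to HOM4 and 0.54, 0.36, 0.43 and 0.41 in HET1 to HET4. The groups did not overlap, and the spread within a group was small beside the gap. The difference was 0.75 ± 0.07 (log2, SE), or 1.68-fold (limma adjusted p = 0.000442). Zfp941, also on chromosome 7, gave -0.48, -0.59, -0.50 and -0.37 in HOM1 to HOM4 and -1.05, -1.31, -1.30 and -1.48 in HET1 to HET4 at probe A_55_P2062652. All 4 embryos of HOM fathers were again above all 4 of HET fathers, by 1.74-fold (0.80 ± 0.09, limma adjusted p = 0.00136). Zfp936, another chromosome 7 gene, was higher by 0.40 ± 0.05 at probe A_55_P1996082 (limma adjusted p = 0.00215), with signals of 2.73 to 2.79 against 2.27 to 2.46.

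Chromosome 2 held 3 of the higher probes. Zfp937 probe A_55_P2117130 read 0.90, 0.92, 1.09 and 0.97 in HOM1 to HOM4 and 0.41, 0.26, 0.21 and 0.31 in HET1 to HET4. No embryo of a HET father reached the lowest embryo of a HOM father, and the difference was 0.67 ± 0.07 (limma adjusted p = 0.000621). Its neighbour Zfp967 read 0.21, 0.12, 0.14 and 0.29 in HOM1 to HOM4 and -0.33, -0.26, -0.46 and -0.62 in HET1 to HET4 at probe A_55_P2006662, a difference of 0.61 ± 0.08 (limma adjusted p = 0.00265). A second Zfp967 probe, A_55_P1995768, was higher by 0.29 (limma adjusted p = 0.0169).

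On chromosome 4 Zfp992 (A_55_P1995902) was higher by 0.32 ± 0.05 (limma adjusted p = 0.00322) and Zfp981 (A_55_P2125963) by 0.64 ± 0.13 (limma adjusted p = 0.0135). On chromosome 13 Zfp935 was higher by 0.51 and Zfp934 (A_52_P315890) by 0.48. Zfp930 (A_51_P517120), Zfp947 (A_66_P127956), Zfp976 (A_55_P2089125), Zfp956 (A_55_P2090324) and a second Zfp975 probe (A_55_P2139341) were higher by 0.21 to 0.28. These 5 calls, and that of Zfp934, were the closest to the threshold, with limma adjusted p between 0.0330 and 0.0423.

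Of the 2 lower probes, Zfp974 on chromosome 7 showed the larger difference. Its signals were -3.64, -3.83, -3.64 and -3.46 in HOM1 to HOM4 and -2.84, -2.88, -2.48 and -2.96 in HET1 to HET4. The lowest embryo of a HET father was above the highest of a HOM father, and the difference was -0.85 ± 0.12, or 1.81-fold lower (limma adjusted p = 0.00276). Zfp953 on chromosome 13 was lower by a smaller amount (-0.35 ± 0.08, limma adjusted p = 0.0194), while the other 2 genes of that chromosome, Zfp934 and Zfp935, each had a higher probe. The next probes in that direction did not pass the threshold. They were Zfp949 A_51_P513244 (-0.25, limma adjusted p = 0.0630) and the Zfp961 probes A_55_P2015912 (-2.12, 0.0649), A_55_P2014570 (-0.36, 0.0650) and A_55_P2015907 (-0.57, 0.143).

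Every embryo of a HOM father was above every embryo of a HET father at 16 of the 73 probes (21.9%), where this held for 14.1% of all tested probes. The reverse held at 3 member probes (4.11%), against 13% of all. The calls of Zfp936, Zfp937, Zfp941, Zfp967 (A_55_P2006662), Zfp974 and Zfp975 (A_55_P2062714) held in each of the 18 alternative fits run. Some tissue markers moved with the father groups, with 2 of the 13 embryo genes (Tbx6 and Myl7), 1 yolk sac gene (Apoa1) and 1 trophoblast gene (Gcm1) lower and none higher with HOM fathers. The summed signal of the 13 embryo genes was 8.85 to 9.15 with HOM and 9.19 to 9.34 with HET fathers. That of the trophoblast genes was 3.33 to 4.14 against 4.07 to 4.81, and that of yolk sac 8.12 to 8.50 against 8.40 to 8.52. Sums were taken over unlogged signals, and that of the embryo genes was set mostly by the globin genes Hbb-bh1 and Hba-x. Neither passed the threshold (-0.22 and -0.33, limma adjusted p = 0.0998 and 0.0576), and this range does not stand for the 13 genes together. The maternal blood genes summed to 6.35 to 6.86 against 6.89 to 6.94, a sum set mostly by Hba-a1 (6.32 to 6.84 against 6.87 to 6.92). Hbb-b2 and S100a8 differed the other way, by 0.18 and 1.78 (limma adjusted p = 0.128 and 0.265). Whether that sum stands for maternal blood was not tested. The decidua gene Prl8a2 spread widely, between 0.29 and 4.45 with HOM fathers and between -3.99 and 1.88 with HET fathers. The part of these tissues in the differences above was not tested, and in whole embryos fewer cells of a type and less RNA per cell cannot be told apart.

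The probes of 1 gene often disagreed. Of the 42 genes 19 had 1 probe and 23 had several, up to the 5 of Zfp975, and 21 had several tested probes, which form 45 pairs. The father difference of the 2 probes differed from each other in 16 pairs (35.6%, limma adjusted p below 0.05), where 15.7% of the 5343 pairs of all genes did. The 16 pairs came from 7 genes, Zfp937, Zfp941, Zfp967, Zfp975, Zfp976, Zfp981 and Zfp984. Zfp975, with its 5 probes, gave far more of them than any other gene. Pairs that share a probe are not independent, so the 35.6% is weighted to this gene and is not a share of genes. The median size of the difference between paired probes was 0.306 for members and 0.145 for all pairs on the log2 scale. The probes had the same sign in 31 of the 45 pairs, and 15 further tested probes of the 13 higher genes were not themselves called higher.

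At Zfp941 the higher probe had a partner, A_55_P2109479, which read -1.02, -1.12, -0.95 and -0.90 in HOM1 to HOM4 and -0.85, -0.88, -0.87 and -0.95 in HET1 to HET4. The groups overlapped at this probe, and its father difference of -0.11 was 0.91 ± 0.07 below that of the other probe (limma adjusted p = 0.000964). At Zfp937 the other 2 probes had father differences of 0.01 and 0.02 and differed from each other by 0.01, and both differed from the higher probe (limma adjusted p = 0.00146 and 0.00132). At Zfp975 probe A_55_P2062714 differed from each of its 4 partners, whose own father differences were -0.13, -0.03, 0.02 and 0.28, with limma adjusted p between 0.0110 and 0.0260. A call at a single probe of these genes was therefore not a call of the gene.

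The largest gaps between probes were not called. At Zfp961 the probes A_55_P2014570 and A_55_P2015912 differed in father difference by 1.76 ± 0.62 (limma adjusted p = 0.0988), and A_55_P2015907 and A_55_P2015912 by 1.56 ± 0.52 (limma adjusted p = 0.0880). At Zfp930 the gap was -0.97 ± 0.58 (limma adjusted p = 0.298). The smallest gap after that of Zfp937 was at Zfp944, where A_51_P233308 and A_52_P576689 differed by -0.02.

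**Figure D2:**
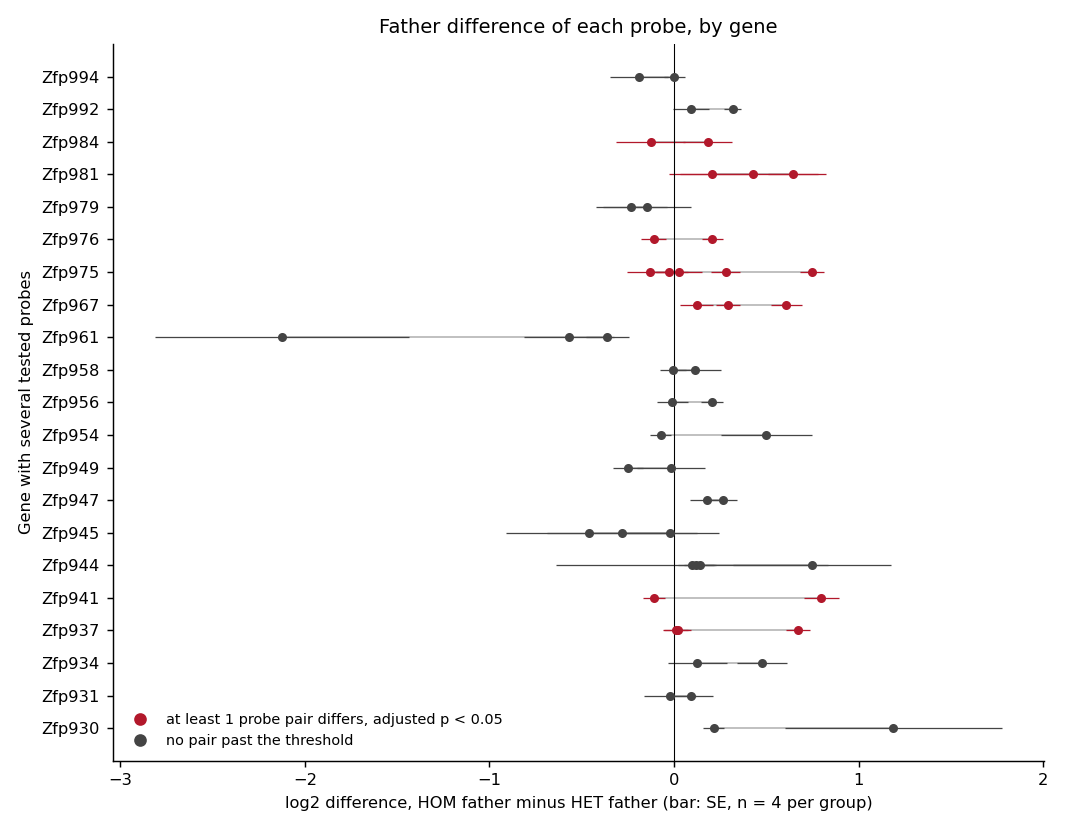
Father difference (log2 signal, HOM minus HET fathers, with standard error, n = 4 per group) of each tested probe of the 21 genes that had several, 1 row per gene. Red marks the 7 genes with at least 1 called pair, such as Zfp941 with 0.80 at 1 probe and -0.11 at the other.

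Taken over all tested probes, the members varied more from embryo to embryo than other genes did, though not on every chromosome. The median SD within a father group was 0.184 on the log2 scale over the 73 probes, compared with 0.129 over all tested probes and 0.109 over probes of other Zfp genes. By chromosome the member median was 0.304 on chromosome 4, 0.305 on 8 and 0.191 on 17, but 0.122 on 2 and 0.139 on 7. An SD above 0.5 was found at 10 member probes (13.7%), 6.87% of all and 2.56% of other Zfp probes. Dim probes vary more, so the tested probes were also split into 4 equal bins by mean signal. In bin 1, the dimmest, the median SD was 0.261 for members and 0.263 for all probes, so that no excess was seen there. In bins 2, 3 and 4 it was 0.230, 0.125 and 0.108 for members, against 0.151, 0.0996 and 0.0781 for all probes. The least variable members were Zfp992 A_55_P1995902 (SD 0.044), Zfp936 A_55_P1996082 (0.062), Zfp948 (0.066) and Zfp959 (0.067). The most variable were Zfp944 A_55_P2045855 (1.18), Zfp961 A_55_P2015912 (1.10), Zfp963 (1.06), Zfp939 (0.98), Zfp930 A_55_P1959076 (0.94) and Zfp982 (0.72). An SD within a father group also holds any difference by sex, and Zfp982 had an SD of 0.25 within females and 0.10 within males.

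**Figure D3:**
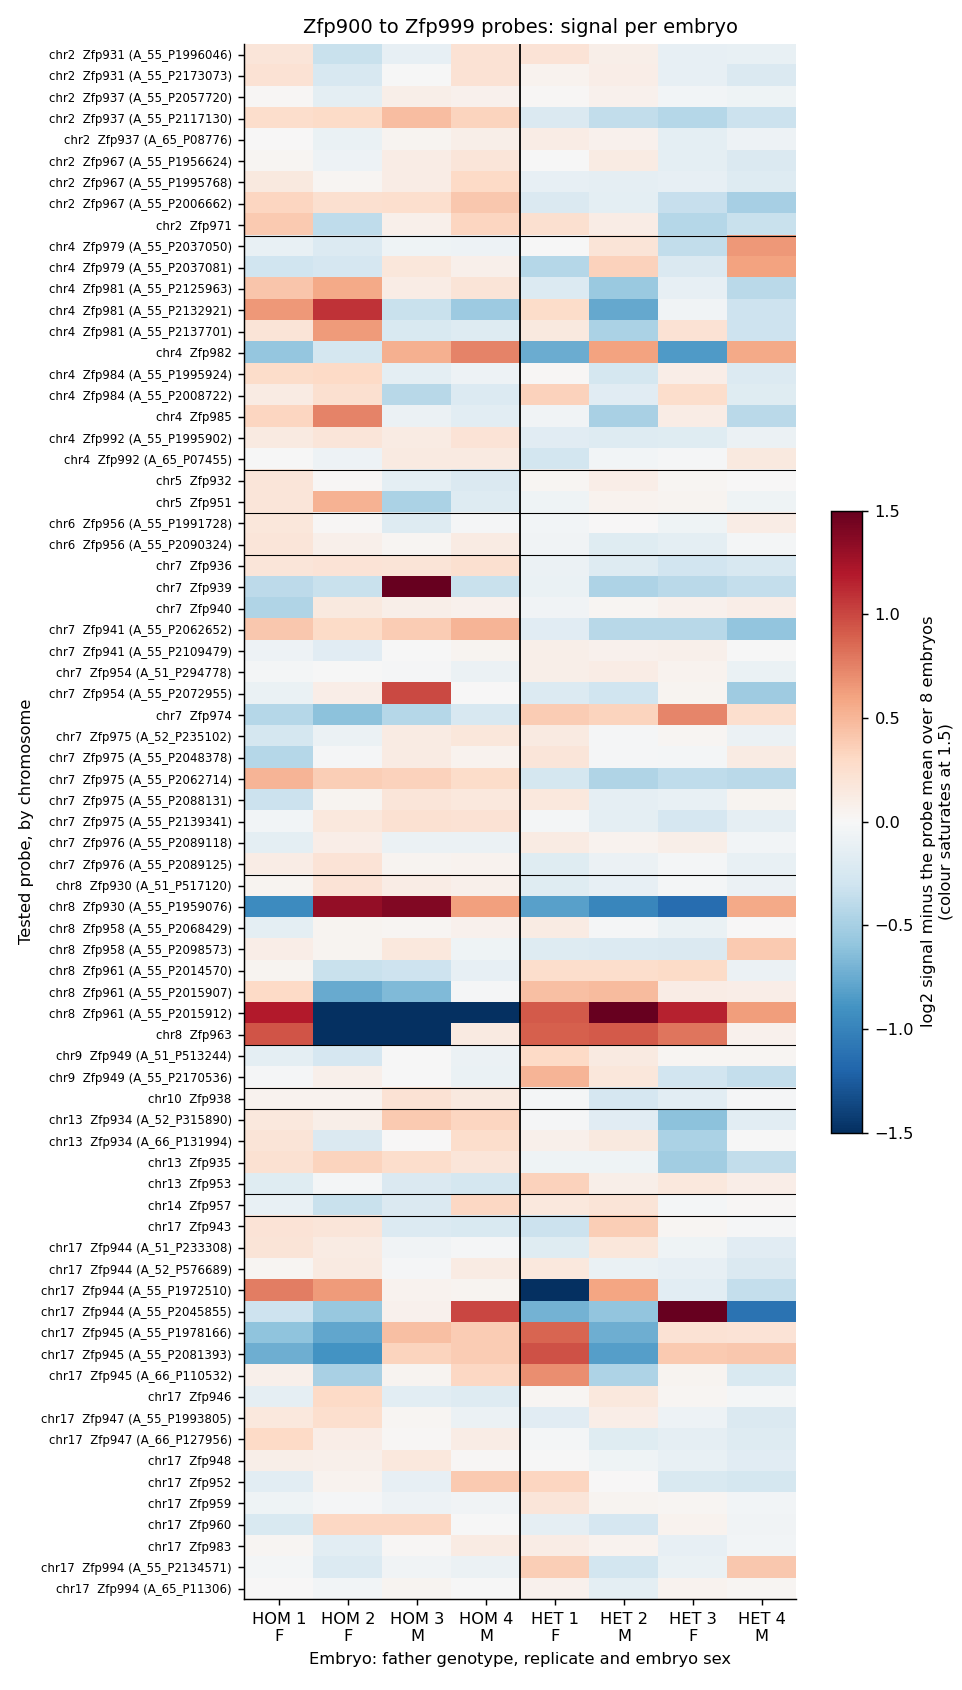
Log2 signal of the 73 tested probes in each of the 8 embryos, minus the probe's mean over the embryos, with probes in rows by chromosome and embryos in columns by father and sex. Red is above and blue below the mean. The strongest colours lie in blocks on chromosomes 4, 8 and 17, and single cells stand out at Zfp939 (HOM3) and Zfp944 A_55_P2045855 (HET3).

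At Zfp939 the spread came from 1 embryo, HOM3. At Zfp944 A_55_P2045855 HET3 stood highest (-0.52), and the embryos of HOM fathers spread as well, from -3.30 to -1.73 (SD 0.69). Other variable probes lay beside members with a like order of embryos. On chromosome 8 Zfp963 read -0.70, -3.49, -3.56 and -1.51 in HOM1 to HOM4 and -0.74, -0.72, -0.83 and -1.58 in HET1 to HET4. The values fell at 3 levels, with HOM2 and HOM3 lowest, HOM4 and HET4 between, and the other 4 embryos, from both father groups, highest. Zfp930 probe A_55_P1959076 ran the opposite way, with -2.41, -0.16, -0.08 and -0.86 in HOM1 to HOM4 and -2.29, -2.45, -2.62 and -0.91 in HET1 to HET4. HOM2 and HOM3 were the highest here, HOM4 and HET4 again lay between, and the same other 4 embryos were lowest. The second Zfp930 probe did not show this pattern and stayed between 3.66 and 4.05 in all embryos.

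Zfp961, farther along the same chromosome, followed Zfp963 in part. Its probe A_55_P2015912 read 0.81, -2.32, -2.34 and -1.93 in HOM1 to HOM4 and 0.53, 1.16, 0.77 and 0.25 in HET1 to HET4. HOM1 stood with the embryos of HET fathers and apart from the other 3 of its own group. The father difference of -2.12 ± 0.69 was not significant with all 8 embryos (limma adjusted p = 0.0649). It was -2.88 (limma adjusted p = 0.000998) when HOM1 was left out, an omission that had to widen the gap between the groups. Leaving out any other single embryo did not bring the difference past the threshold, as without HOM2 (-1.83, limma adjusted p = 0.127). The probe A_55_P2015907 read -3.14 and -3.06 in HOM2 and HOM3 and -2.41 to -1.91 in the other embryos, and A_55_P2014570 read 2.01 and 2.03 in HOM2 and HOM3 and 2.22 to 2.63 in the others. In the stretch from Zfp930 to Zfp961 the 6 member probes of these 3 genes had a median SD of 0.666, and 95 tested probes of 78 other genes there had 0.148. In the stretches of chromosomes 4 and 17 few other genes were measured and the members were not the more variable, with a median SD of 0.304 against 0.354 for 4 other probes on chromosome 4 and 0.247 against 0.385 for 2 others on chromosome 17. The decidua gene Prl8a2 was highest in HOM2 (4.14) and HOM3 (4.45), but was 1.30 in HOM4 and lowest in HET4 (-3.99), the embryos of intermediate Zfp963 signal. A part of maternal tissue in this pattern was not tested.

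On chromosome 17 a different set of embryos stood together. Zfp945 probe A_55_P2081393 read -1.71, -1.88, -0.65 and -0.60 in HOM1 to HOM4 and -0.02, -1.81, -0.59 and -0.57 in HET1 to HET4. HOM1, HOM2 and HET2 were low, HET1 was highest, and the other 4 lay between -0.65 and -0.57. A second Zfp945 probe, A_55_P1978166, gave the same order of these 3 sets, with -1.99 to -1.82, -1.01 to -0.77 and -0.34. Zfp944 probe A_55_P1972510 ran the opposite way, with -2.35, -2.47, -3.06 and -3.06 in HOM1 to HOM4 and -4.68, -2.52, -3.27 and -3.47 in HET1 to HET4. HOM1, HOM2 and HET2 were the highest and HET1 the lowest. Zfp943 followed Zfp944, at 1.70, 1.68 and 1.87 in HOM1, HOM2 and HET2, 1.17 in HET1 and 1.27 to 1.52 in the others. At Zfp947 A_55_P1993805 the range was narrower, with 2.25 to 2.40 in the same 3 embryos and 1.93 to 2.17 in the other 5. Zfp944 A_51_P233308 also showed this order in a narrow range. It read -1.21 to -1.15 in HOM1, HOM2 and HET2, -1.52 in HET1 and -1.51 to -1.36 in the others. The remaining probes of the stretch did not show this order. Zfp947 A_66_P127956 read 3.99 and 3.80 in HOM1 and HOM2 but 3.51 in HET2, and the third Zfp945 probe, A_66_P110532, read -4.54 in HOM1 and -4.85 in HET4. The 5 probes described were chosen after their values were seen, from 13 member probes between Zfp943 and Zfp945. None of these 5 probes passed the threshold by father (lowest limma adjusted p = 0.229). HOM1, HOM2 and HET2 come from both father genotypes and both sexes, as do HOM3, HOM4, HET3 and HET4. The genotype of single embryos at these clusters was not analysed here.

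**Figure D4:**
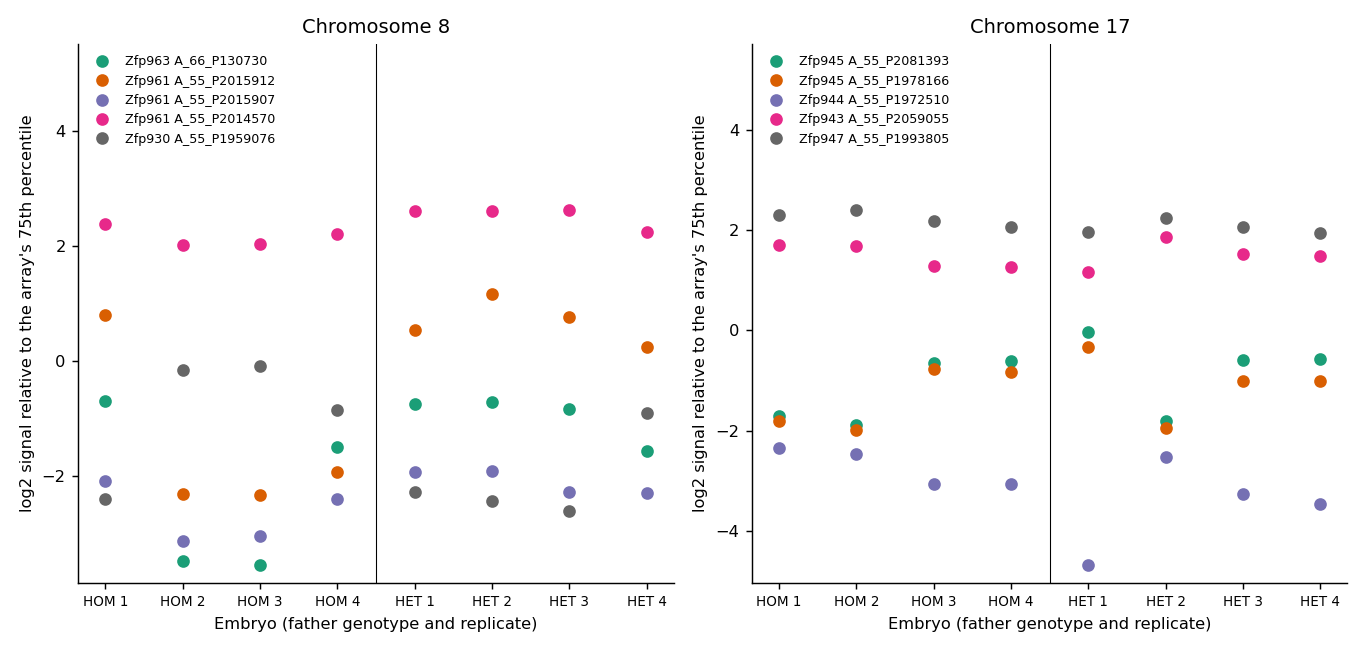
Log2 signal relative to the array's 75th percentile (vertical axis) in each of the 8 embryos (horizontal axis) for 5 probes of 3 genes on chromosome 8 and 5 probes of 4 genes on chromosome 17. HOM2 and HOM3 are lowest at Zfp963 (-3.49 and -3.56) and highest at Zfp930 (-0.16 and -0.08), and HOM1, HOM2 and HET2 are lowest at Zfp945.

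Chromosome 2 showed a weaker common order. Zfp971 read -2.26, -3.04, -2.59 and -2.34 in HOM1 to HOM4 and -2.42, -2.55, -3.08 and -2.99 in HET1 to HET4, so that HOM2, HET3 and HET4 were lowest. Zfp931 A_55_P1996046 was also lowest in HOM2 (0.14), followed by HOM3, HET3 and HET4 (0.35 to 0.36), and stood at 0.56 to 0.69 in the other 4 embryos. The father groups overlapped at both probes.

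Among the genes with no called probe outside these clusters, Zfp932, the ERVK repressor on chromosome 5, read 1.48, 1.32, 1.14 and 1.07 in HOM1 to HOM4 and 1.32, 1.39, 1.32 and 1.30 in HET1 to HET4. The group with HOM fathers spanned that with HET fathers, and the difference was -0.08 ± 0.09 (limma adjusted p = 0.583). Zfp951, on the same chromosome, ranged from -1.78 in HOM3 to -0.78 in HOM2 and had a father difference of 0.02 ± 0.20 at its tested probe. Zfp938 on chromosome 10 was near the threshold, at 0.23 ± 0.07 (limma adjusted p = 0.0597), as was Zfp948 on chromosome 17, at 0.17 ± 0.06 (limma adjusted p = 0.0612). On chromosome 17 Zfp983 differed by 0.00 ± 0.08 and Zfp959 by -0.10 ± 0.06, where the groups overlapped at -0.81 to -0.75 and -0.77 to -0.56 (limma adjusted p = 0.230). Zfp954 on chromosome 7 gave -0.07 ± 0.06 at 1 probe and 0.50 ± 0.25 at the other, where HOM3 alone stood high (-1.09, against -2.61 to -1.98 in the other embryos).

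Embryo sex was compared with father as a covariate. At a limma adjusted p below 0.05 no member was higher in females and 1 was lower, where 0.0605% of all tested probes were called in each direction, and no member passed at 2-fold and an adjusted p below 0.01, which 0.0269% of all probes passed upwards and 0.0336% downwards. The probe was that of Zfp982 on chromosome 4, with -2.18 and -1.88 in the females HOM1 and HOM2, -2.35 and -2.46 in the females HET1 and HET3, and -1.08, -0.86, -1.01 and -1.04 in the males HOM3, HOM4, HET2 and HET4. All females lay below all males, by 1.22 ± 0.11 on the log2 scale (limma adjusted p = 0.0139). The adjusted p rose above 0.05 when any 1 embryo other than HOM2 or HOM3 was left out (up to 0.0963) and when all probes were tested (0.0679), while the difference stayed between -1.31 and -1.04. At an unadjusted p below 0.05 there were 9 member probes (12.3%, against 5.22% of all tested probes), 6 higher and 3 lower in females, and all 9 lie on chromosome 4.

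Other genes of this autosomal cluster separated by sex without passing the threshold. Every female was above every male at 5 member probes (6.85%, against 0.955% of all tested probes) and below at 2 (2.74%, against 0.942%), and these 7 probes belong to Zfp979, Zfp981, Zfp982, Zfp984 and Zfp985. Zfp984 A_55_P2008722 read 2.42, 2.53, 2.63 and 2.55 in the females HOM1, HOM2, HET1 and HET3 and 1.87, 2.09, 2.12 and 2.11 in the males HOM3, HOM4, HET2 and HET4, a difference of 0.49 ± 0.06 (limma adjusted p = 0.0944). Under median scaling the same probe passed (limma adjusted p = 0.0133). Its other probe differed by 0.35 (limma adjusted p = 0.157), and Zfp981 A_55_P2137701 by 0.60 (limma adjusted p = 0.265). Zfp979 A_55_P2037081 went the way of Zfp982, with 0.69 to 0.90 in females and 1.20 to 1.72 in males (-0.60, limma adjusted p = 0.364). At Zfp992, at the edge of the cluster, females and males overlapped at both probes, with differences of -0.02 and -0.19 (lowest limma adjusted p = 0.914). The larger difference is among the 9 at an unadjusted p below 0.05. Neighbouring genes in 8 embryos are not independent observations of sex. Between Zfp992 and Zfp984, 4 tested probes of 3 other genes gave 1 with all females above all males.

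**Figure D5:**
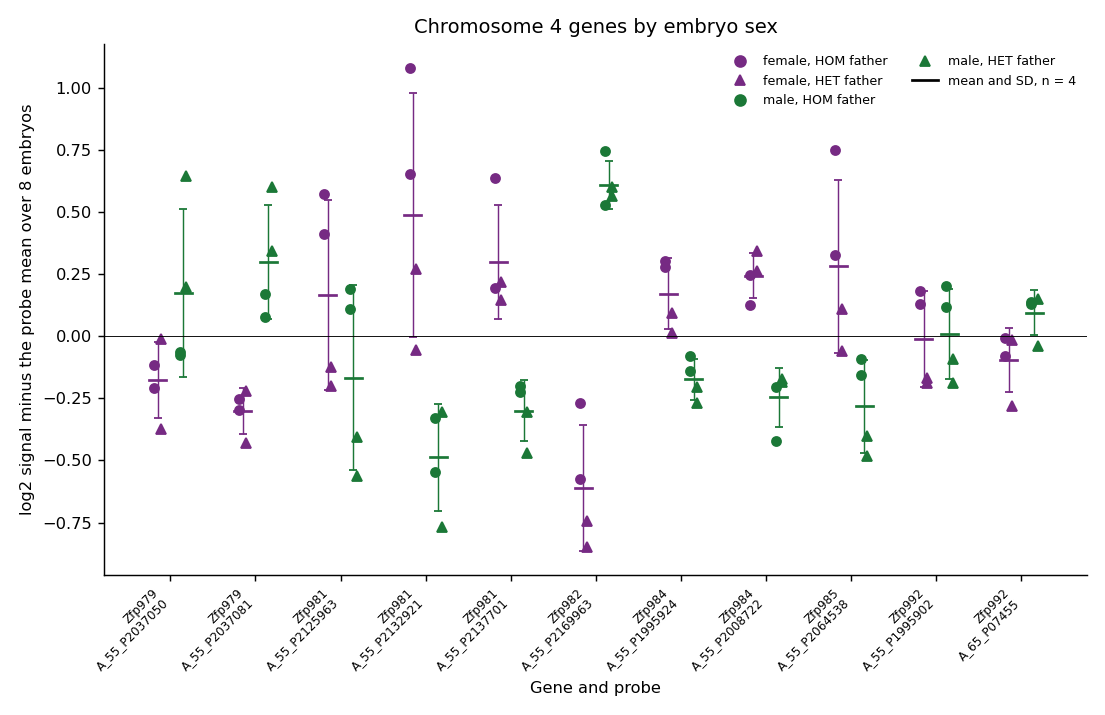
Log2 signal minus the probe mean over 8 embryos for the 11 tested probes of the 6 chromosome 4 genes, females in purple and males in green, with circles for HOM and triangles for HET fathers. Bars give the mean and SD of 4 embryos per sex. The sexes separate at 7 probes, with females lowest at Zfp982 and at Zfp979 A_55_P2037081 and highest at 5 probes of Zfp981, Zfp984 and Zfp985.

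The start regions of the 5 chromosome 4 genes that separated by sex are shown because they are similar to each other, and those of 2 chromosome 17 genes are added for their shared stretch. They are RefSeq promoters of build GRCm38.p6, 250 bases before to 50 bases after the gene start, written 5′ to 3′ on the gene's strand. Zfp982 has 3 starts in the table, and the only one that holds the marked letters is shown. The positions are chr4:146514670-146514969 on the plus strand for Zfp981, chr4:147492167-147492466 on the plus strand for Zfp982, chr4:147553027-147553326 on the plus strand for Zfp985, chr4:147642459-147642758 on the minus strand for Zfp979, chr4:147809739-147810038 on the minus strand for Zfp984, chr17:22867085-22867384 on the minus strand for Zfp945 and chr17:22165928-22166227 on the minus strand for Zfp947. Capitals mark the 9 letters TGGGCGGGT.
Zfp981: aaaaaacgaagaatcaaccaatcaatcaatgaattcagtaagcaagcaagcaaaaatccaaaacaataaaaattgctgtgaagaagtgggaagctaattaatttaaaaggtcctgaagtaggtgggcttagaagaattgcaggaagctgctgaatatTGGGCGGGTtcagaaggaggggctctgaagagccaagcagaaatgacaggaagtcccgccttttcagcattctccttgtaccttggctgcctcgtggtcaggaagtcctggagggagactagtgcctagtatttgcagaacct
Zfp982: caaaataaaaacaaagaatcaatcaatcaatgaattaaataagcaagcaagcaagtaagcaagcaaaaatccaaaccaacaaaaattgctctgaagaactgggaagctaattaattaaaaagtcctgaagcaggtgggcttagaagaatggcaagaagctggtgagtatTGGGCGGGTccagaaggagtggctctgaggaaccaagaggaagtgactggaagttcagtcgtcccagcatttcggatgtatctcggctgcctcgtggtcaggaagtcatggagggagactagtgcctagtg
Zfp985: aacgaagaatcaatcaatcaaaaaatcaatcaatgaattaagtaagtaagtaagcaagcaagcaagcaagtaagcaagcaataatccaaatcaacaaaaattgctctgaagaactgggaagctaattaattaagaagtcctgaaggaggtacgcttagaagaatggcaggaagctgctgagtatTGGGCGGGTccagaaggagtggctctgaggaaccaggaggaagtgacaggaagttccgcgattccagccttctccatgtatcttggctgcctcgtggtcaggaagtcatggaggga
Zfp979: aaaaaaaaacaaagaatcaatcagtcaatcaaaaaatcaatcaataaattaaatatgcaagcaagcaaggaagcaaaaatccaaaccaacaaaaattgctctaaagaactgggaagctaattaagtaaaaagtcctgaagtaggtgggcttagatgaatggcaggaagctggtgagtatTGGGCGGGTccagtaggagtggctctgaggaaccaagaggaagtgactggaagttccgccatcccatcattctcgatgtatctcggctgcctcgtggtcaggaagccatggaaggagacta
Zfp984: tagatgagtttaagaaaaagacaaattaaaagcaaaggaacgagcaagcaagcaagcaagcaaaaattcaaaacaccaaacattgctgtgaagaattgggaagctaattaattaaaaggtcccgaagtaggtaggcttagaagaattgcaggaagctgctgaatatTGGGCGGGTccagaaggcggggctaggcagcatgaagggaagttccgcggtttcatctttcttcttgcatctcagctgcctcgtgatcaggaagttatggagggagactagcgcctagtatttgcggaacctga
Zfp945: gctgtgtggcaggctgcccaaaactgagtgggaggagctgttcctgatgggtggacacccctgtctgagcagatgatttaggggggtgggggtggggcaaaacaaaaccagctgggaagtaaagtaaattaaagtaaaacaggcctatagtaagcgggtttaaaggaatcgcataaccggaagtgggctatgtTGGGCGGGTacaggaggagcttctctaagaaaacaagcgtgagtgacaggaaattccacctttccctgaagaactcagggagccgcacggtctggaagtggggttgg
Zfp947: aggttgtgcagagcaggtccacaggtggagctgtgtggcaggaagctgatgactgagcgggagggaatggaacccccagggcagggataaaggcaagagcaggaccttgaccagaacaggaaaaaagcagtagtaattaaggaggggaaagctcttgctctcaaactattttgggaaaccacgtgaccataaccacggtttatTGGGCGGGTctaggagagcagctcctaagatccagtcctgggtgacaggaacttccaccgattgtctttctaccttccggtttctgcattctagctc

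Aligned over their length, the 5 chromosome 4 sequences were identical at 81.5% to 95.1% of aligned bases in the 10 pairs. The letters TGGGCGGGT were chosen after these sequences were seen and were searched on both strands without regard to other motifs. RefSeq promoters were matched for 38 of the 42 members (Zfp930, Zfp934, Zfp960 and Zfp992 had none in the table), and 9 of the 38 genes (23.7%) held the letters, compared with 6 of 268 other Zfp genes (2.24%) and 0.625% of 27025 genes with a promoter of this length. The 9 were all 5 matched genes of chromosome 4 and 4 of the 10 on chromosome 17, Zfp945, Zfp946, Zfp947 and Zfp994. Genes whose sequences are shown hold the letters by the way these were chosen, and they count in the 23.7%. The shares therefore do not test whether members hold the letters more often than other genes. A match describes the sequence only. The genes with the letters included Zfp984, with both probes above the males in every female, as well as Zfp979 and Zfp982, each with 1 probe below the males in every female. The median number of CG dinucleotides was 8 in member promoters, 16 in those of other Zfp genes and 7 in all.

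Whether the father difference depended on embryo sex was tested with an interaction term on 2 embryos per combination. No member passed (lowest limma adjusted p = 0.816). At an unadjusted p below 0.05 there were 7 (9.59%, against 4.51% of all tested probes). They included every tested Zfp945 probe (limma unadjusted p = 0.00859, 0.0127 and 0.0356) and Zfp943 (0.0213), all in the chromosome 17 stretch described above. Probes of 1 gene and of neighbouring genes are not independent, so the share does not stand for the family. At an adjusted p below 0.05, 0.0202% of all tested probes had a larger and 0.0437% a smaller father difference in females.

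The genes through which KRAB zinc finger proteins act were read in the same fit from a list of 22 genes, 21 with a probe, all well above background in every embryo. Of their 36 tested probes 3 were higher (8.33%, against 12.3% of all tested probes) and 6 lower (16.7%, against 8.69%) in embryos of HOM fathers, and the median difference was -0.00. Trim28, whose product is the scaffold of the complex, was lower by 0.21 (5.13 ± 0.04 against 5.34 ± 0.06, mean ± SD, n = 4, limma adjusted p = 0.0200). Setdb1, the H3K9 methyltransferase, was higher by 0.21 (limma adjusted p = 0.0491), and Morc2a, an ATPase of the HUSH silencing pathway, was lower by 0.31 (limma adjusted p = 0.00379). The HP1 genes split, with Cbx1 higher by 0.24 and 1 probe of Cbx5 lower by 0.21. Pphln1, a HUSH subunit, was higher by 0.23 at 1 of 2 probes. Dnmt1, the maintenance DNA methyltransferase, was lower by 0.26, and Uhrf1, which guides it, by 0.22 at 1 of 2 probes. Zfp57, a zinc finger protein that protects imprints, was lower by 0.33 at 1 probe and differed by 0.22 in the other direction at the second (limma adjusted p = 0.0710). Under median scaling, where the shares over all tested probes were not counted, none of the 36 was higher and 13 were lower.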

How the data were processed

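RNA of 8 E8.5 embryos (4 per father genotype, 2 of each sex) was hybridised to single-colour arrays, from 0.2 µg of total RNA per the labels. The authors extracted spot intensity values with Agilent Feature Extraction 11.0.1.1, which subtracts background and removes spatial trends. The deposited intensity tables were not normalised between arrays, and the deposited series table held the same signal rounded (largest difference 0.5%). The deposited flags, other values of 0 or 1, served as filters.

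Outlier spots were left out, log2 signals were shifted by each array's 75th percentile, and spots of 1 probe were averaged. Probes were kept apart. Accessions were matched to RefSeq (GRCm38.p6) for names and gene order only, and 48.9% of probes matched. The array design used build mm9, and no array coordinates are given. A probe was tested when on 4 of 8 arrays it cleared the background and did not fall below the 20th percentile (29732 probes). Fits used limma 3.58.1 in R 4.3.3 (two-sided, Benjamini-Hochberg over all tested probes, or over all 5343 probe pairs of 1 gene), checked on simulated data. No p-value was adjusted over the members alone. Alternatives were quantile and median scaling, normexp (offset 50, run on the median signal because the tables held no mean signal), other filters, sex, block and variance terms, the authors' table and leaving out each embryo.

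Members, marker and corepressor lists were chosen with earlier results of these data known. Named are probes called by father, the 6 of lowest adjusted p per direction by father and the 3 by sex, the 6 most and 4 least variable, and the 4 largest and 2 smallest pair gaps. Other named probes, such as those of the chromosome 8 and 17 clusters, were chosen after their values were seen. The number of arrays limits the precision.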

Additional observations from a re-analysis of the deposited data

Results flagged for a closer look

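Within father groups of 4 embryos, 1 embryo stood far from the other 3 at 9 of the 150 combinations of 75 probes and 2 groups. Chance gives about 1 in 20, or 7.5 here, so the number is near what chance gives. In 3 of the 9 the gap was above 1 on the log2 scale. Zfp944 A_55_P2045855 read -0.52 in HET3 and -3.84 to -3.33 in the other embryos of HET fathers. Zfp961 A_55_P2015912 read 0.81 in HOM1 and -2.34 to -1.93 in HOM2 to HOM4. Zfp939 read -1.20 in HOM3 and -3.98 to -3.92 in the other 3 of its group.

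In HET4, Zfp963 read -1.58 (others -0.83 to -0.72), Zfp958 A_55_P2098573 read -2.98 (others -3.58 to -3.56) and Zfp961 A_55_P2014570 read 2.25 (others 2.61 to 2.63). Zfp940 read -4.9996 in HOM1 (others -4.49 to -4.41), Zfp946 read 1.61 in HOM2 (others 1.11 to 1.17) and Zfp994 A_65_P11306 read -0.62 in HET2 (others -0.44 to -0.41). The cause of these gaps was not tested.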

How the results depend on the processing

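None of the 31 named differences that were followed through the alternatives changed direction. The other differences printed above were not followed, so small ones may change sign, above all under median scaling. Of the 17 member probes called by father, 6 held their call in all 18 alternatives. Median scaling gave 5 higher and 13 lower members, 1 of them lower at 2-fold and an adjusted p below 0.01, with 0 higher and 13 lower corepressor probes and 1 member higher in females. It moved all differences down, and the shares of all tested probes called under it were not counted. Normexp gave 4 lower members. Testing all probes gave 7 higher and 1 lower, and 0 lower in females. Leaving out 1 embryo at a time gave 9 to 12 higher members (9 without HOM4 or HET2) and 1 to 5 lower (5 without HOM1, 1 without HOM3 or HOM4), 0 to 1 lower at 2-fold (1 without HOM1), 3 to 7 lower corepressor probes (3 without HOM1, HOM3 or HET3), 0 to 1 lower in females, 0 to 1 at 2-fold by sex (1 without HOM2), and 10 to 13 called pairs (10 without HET3). The cause was not tested beyond the smaller number of embryos. With the replicate number as a block, 7 members were higher and 1 lower. The numbers do not pair the embryos, since deviations of same-numbered embryos correlated at 0.189, -0.086, -0.132 and 0.145. HOM3 and HOM4 share the leading number of their sample identifier, as do HET1 and HET2, and what this number means is not known. With it as a random block, 10 members were higher and 2 lower. All other counts kept within 1.5 times their value. Signal over background limits the 2 untested probes.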
